A study of Mus musculus with 12 samples.

Results

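Noncoding host genes of small nucleolar RNAs (snoRNAs) were followed in 3T3 cells, which are cultured fibroblasts of the mouse. The genes were chosen by symbol: Gas5, Snhg1, Snhg3, Snhg5, Snhg6, Snhg8, Snhg12, Zfas1 and Epb41l4aos. Of these 9 names, 1, Zfas1, had a row among the 32544 rows of the count table, and it was 1 of the 14279 genes that passed the filter on low counts. The other 8 are not analysed here. The description is therefore of Zfas1, set beside 2 further hosts that were measured, Snhg16 (listed under its older symbol 1810032O08Rik) and Snhg11, a gene named as a snoRNA host but typed as protein-coding in GENCODE M21, the annotation used here.

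Bulk RNA was sequenced from 4 groups of 3 libraries. The cells of the Untreated group received no vesicles. For 24 h the other 3 groups were given extracellular vesicles (EVs), small particles enclosed by membrane that cells shed, from the human breast cancer line MDA-MB-468. The donor cells were control cells (shCon), cells with CRIPTO knocked down (shCr) or cells overexpressing CRIPTO (CrOE), CRIPTO being a cell-surface protein encoded in the mouse by Tdgf1. The changes in CRIPTO were made in the donor cells, and Tdgf1 held 0 to 3 counts in every 3T3 library. All groups share the 3T3 line, and no label names separate cultures, so p-values measure the spread between these libraries, which may be technical. The labels also name no EV dose and no mock-vesicle control. The group names of the CrOE libraries rest on a match of their table columns by elimination.

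Library totals lay between 25960054 and 37774020 estimated counts, the CrOE libraries (31389839 to 35490290) being deeper than the untreated ones (25960054 to 27189953). The mitochondrial share of a library was 0.495% to 1.70%. In order of replicate it was 0.495%, 1.64% and 0.991% in untreated cells and 1.35%, 1.64% and 1.61% after shCon EVs. It was 0.622%, 1.44% and 1.70% after shCr EVs and 1.32%, 0.693% and 1.44% after CrOE EVs. The part of this share in the results was not tested. The summed level of 8 fibroblast markers was 15579 to 16629 CPM (a gene's counts relative to the TMM-scaled library total, in the usual CPM unit) in untreated libraries, 17340 to 17509 CPM after shCon EVs, 12206 to 13746 CPM after shCr EVs and 4765 to 4938 CPM after CrOE EVs, with all 8 tested and none at 0. No 2 of these groups overlapped. The sums of 6 epithelial markers lay between 0.966 and 2.16 CPM in all libraries, with Epcam at 0 throughout, those of 4 immune markers between 3.35 and 10.3 CPM, and those of 3 endothelial markers between 0.405 and 1.46 CPM. The single markers did not all follow their sum. By group mean, Col1a1 (4535 to 6557 CPM), Col1a2, Col3a1 and Pdgfrb were higher after shCon EVs than in untreated cells. Pdgfra, Vim, Thy1 and S100a4 (965 to 401 CPM) were lower there. After shCr EVs Pdgfrb and Vim were higher and the other markers lower, and after CrOE EVs all 8 were lower. The part of the fibroblast marker sum, which was higher after shCon and lower after shCr and CrOE EVs, in the results of those groups was not tested. In bulk RNA, fewer cells of a kind and less RNA per cell cannot be told apart.

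A snoRNA host gene is transcribed as a longer RNA whose introns hold snoRNAs, the guides that direct chemical modification of ribosomal and other RNAs. The spliced exons of a noncoding host carry no long reading frame, and many such RNAs are known to be engaged by ribosomes and removed by nonsense-mediated decay (NMD), a translation-dependent pathway that degrades RNAs with early stop codons. Several hosts also start with a terminal oligopyrimidine (TOP) tract, a C followed by further pyrimidines that is known from ribosomal protein mRNAs. Zfas1 is named for its place antisense to the start of Znfx1, a gene for a helicase-type zinc finger protein. The sequences and the map below show the features that make Zfas1 a host.

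In GENCODE M21, Zfas1 lies on chromosome 2 and has 5 transcripts, of which 4 are typed as retained-intron RNAs and 1, with 5 exons and 738 spliced bases, as antisense. That annotation is of another mouse build than the mm39 named in the submitters' processing notes, so distances are given and coordinates are not. In the introns of the 5-exon transcript lie 3 snoRNA genes of 89 to 93 bases. The 3 snoRNAs are shown because they are what the host releases, with 2 box motifs of the C/D class of snoRNAs in capitals, TGATGA and the last CTGA past the middle of the RNA, searched on the transcribed strand only and not overlapping:
Gm25878 (intron 1): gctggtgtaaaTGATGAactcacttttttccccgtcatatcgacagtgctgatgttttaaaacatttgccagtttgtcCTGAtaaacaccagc
Gm23201 (intron 2): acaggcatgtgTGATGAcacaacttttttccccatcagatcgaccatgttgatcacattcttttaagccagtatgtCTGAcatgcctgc
Snord12 (intron 3): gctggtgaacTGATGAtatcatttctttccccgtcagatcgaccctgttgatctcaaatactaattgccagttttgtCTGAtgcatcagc
All 3 hold both motifs. Among 934 annotated snoRNA transcripts of 60 to 130 bases, 37.3% hold TGATGA, 75.5% hold CTGA past the middle and 35.7% hold both. The 3 snoRNAs inside Snhg16, Snord1a, Snord1b and Snord1c, hold CTGA there but not the letters TGATGA. The libraries were made from poly(A)-selected RNA, and no level of a snoRNA is given here.

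The annotated 5′ ends are shown because they bear on the TOP class, with a run of pyrimidines that begins at the first base in capitals:
Zfas1, 5-exon transcript, first 60 bases: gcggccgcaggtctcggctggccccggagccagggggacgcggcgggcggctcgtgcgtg
Zfas1, retained-intron transcript that starts farther downstream, first 60 bases: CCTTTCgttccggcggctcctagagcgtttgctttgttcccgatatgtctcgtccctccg
Snhg16, first 60 bases: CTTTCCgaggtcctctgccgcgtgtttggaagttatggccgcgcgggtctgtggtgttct
The 5-exon transcript begins with a purine, and the second one shown, whose annotated start lies 287 bases downstream, begins with C and 5 more pyrimidines. The Snhg16 bases shown open 2 of its 7 transcripts. Its other transcripts begin with 0 or 1 pyrimidine. A C that opens a run of at least 5 pyrimidines begins 1 of the 5 Zfas1 transcripts, 2 of the 7 transcripts of Snhg16 and 0 of the 5 of Snhg11, against 2.16% of all 122073 transcripts. By gene, 6.29% of 36301 genes and 12 of 30 listed protein-coding snoRNA hosts have such a transcript. At the RefSeq start of Zfas1 (GRCm38.p6) the longest pyrimidine run within 5 bases either side was 3 bases, a length that 51.7% of 32851 promoters reach or pass. The letters are a description of annotated models, and which start was used in these cells was not measured.

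**Figure D1:**
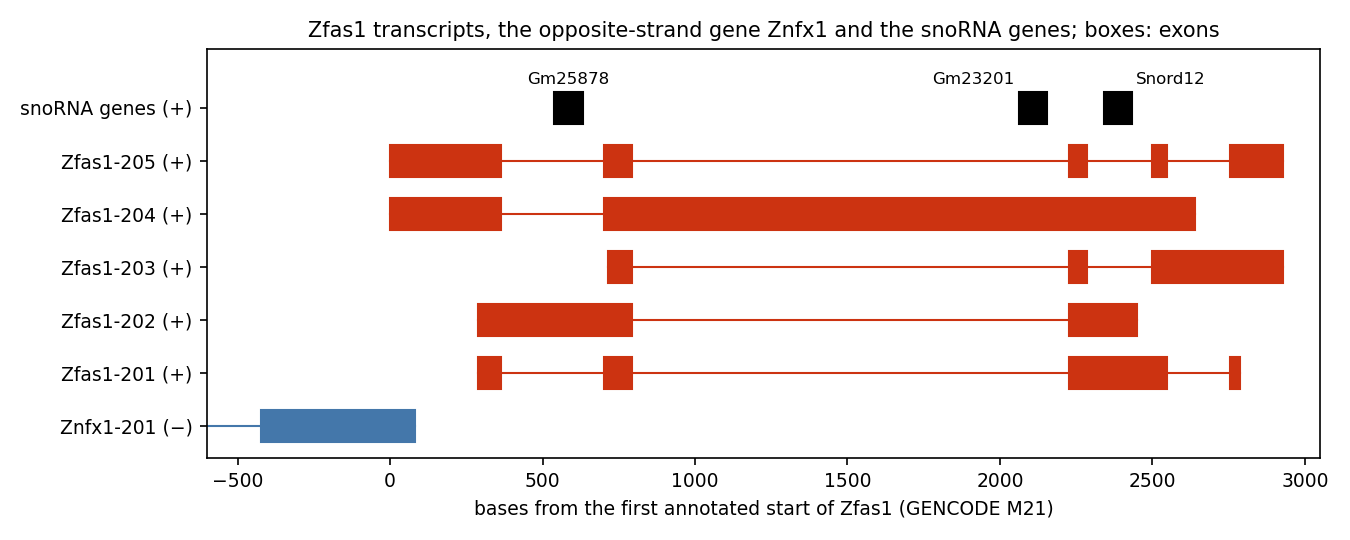
Annotated exons (boxes) and introns (lines) of the 5 Zfas1 transcripts, of a Znfx1 transcript on the opposite strand and of the 3 snoRNA genes, by distance in bases from the first Zfas1 start. The first Znfx1 exon overlaps 82 bases of the 5-exon Zfas1 transcript, the starts of 2 Zfas1 transcripts lie 287 and 289 bases downstream, and exons of retained-intron models cover the positions of all 3 snoRNAs.

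Zfas1 was lowest in untreated cells, higher after shCon and shCr EVs and highest after CrOE EVs. The estimated counts were 1087, 1056 and 879 in the untreated libraries, 2103, 2120 and 1906 after shCon EVs, 2787, 2002 and 2206 after shCr EVs, and 8557, 9028 and 8604 after CrOE EVs. Scaled by library size, untreated cells held 39.8, 40.25 and 32.3 CPM (37.5 ± 4.44, SD, n = 3). The CPM after shCon EVs were 75.25, 70.4 and 68.7 (71.4 ± 3.42, SD, n = 3). After shCr EVs they were 98.2, 64.1 and 58.5 (73.6 ± 21.5, SD, n = 3), the first library standing above the other two. After CrOE EVs they were 271, 263 and 242 (259 ± 15.3, SD, n = 3). Every EV library was above every untreated library and every CrOE library above all others, while the shCon and shCr groups overlapped. Those 2 groups are the only neighbours in the order whose levels did not differ beyond their spread.

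Against untreated cells, Zfas1 was called higher in all 3 EV groups by edgeR's quasi-likelihood F-test, p-values being adjusted by Benjamini-Hochberg over all genes. After shCon EVs it was 1.91-fold higher (95% interval 1.48 to 2.46; log2 fold change 0.93 ± 0.16, SE; adjusted p = 0.00055), in a comparison where 38.1% of tested genes were called and 18.0% were called higher. After shCr EVs it was 1.96-fold higher (1.52 to 2.53; log2 0.97 ± 0.16, SE; adjusted p = 0.000366), where 37.3% were called and 18.4% were called higher. Without the high first shCr library the log2 fold change was 0.71 (adjusted p = 3.3e-05). After CrOE EVs Zfas1 was 6.90-fold higher (5.31 to 8.97; log2 2.79 ± 0.16, SE; adjusted p = 5.39e-09), where 73.7% of genes were called and 36.7% were called higher. These 3 comparisons share the untreated libraries. All comparisons also use 1 estimate of spread per gene from the 12 libraries, so the first shCr library enters every SE and interval. Without it the SE of Zfas1 against untreated cells was 0.080 for shCon EVs and 0.082 for CrOE EVs.

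Between EV groups, Zfas1 was 3.62-fold higher after CrOE than after shCon EVs (95% interval 2.82 to 4.65; edgeR adjusted p = 2.24e-07), where 72.6% of genes were called and 36.5% were called higher. It was 3.52-fold higher after CrOE than after shCr EVs (2.74 to 4.52; edgeR adjusted p = 2.42e-07), where 73.9% were called and 36.9% were called higher. The shCr and shCon groups differed by a log2 fold change of 0.041 ± 0.15 (SE), with a fold between 0.804 and 1.32 (95% interval; edgeR adjusted p = 0.91), and in that comparison 8.73% of genes were called, 5.22% higher and 3.51% lower. Without the first shCr library the value was -0.23 (adjusted p = 0.135). The F-test over the 4 groups called Zfas1 (edgeR adjusted p = 1.12e-08), as it did 81.3% of genes tested.

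A call is common in this series, so the size of the rise was also placed among all genes. By log2 fold change against untreated cells, Zfas1 ranked 592nd of 14279 after shCon EVs, 535th after shCr EVs and 214th after CrOE EVs, counted from the largest rise. Among the 1783 genes within 0.5 log2 CPM of its average level, 18, 21 and 8 had a larger log2 fold change in those comparisons. The medians over all genes were 0.0069, 0.020 and 0.0078 on the log2 scale.

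**Figure D2:**
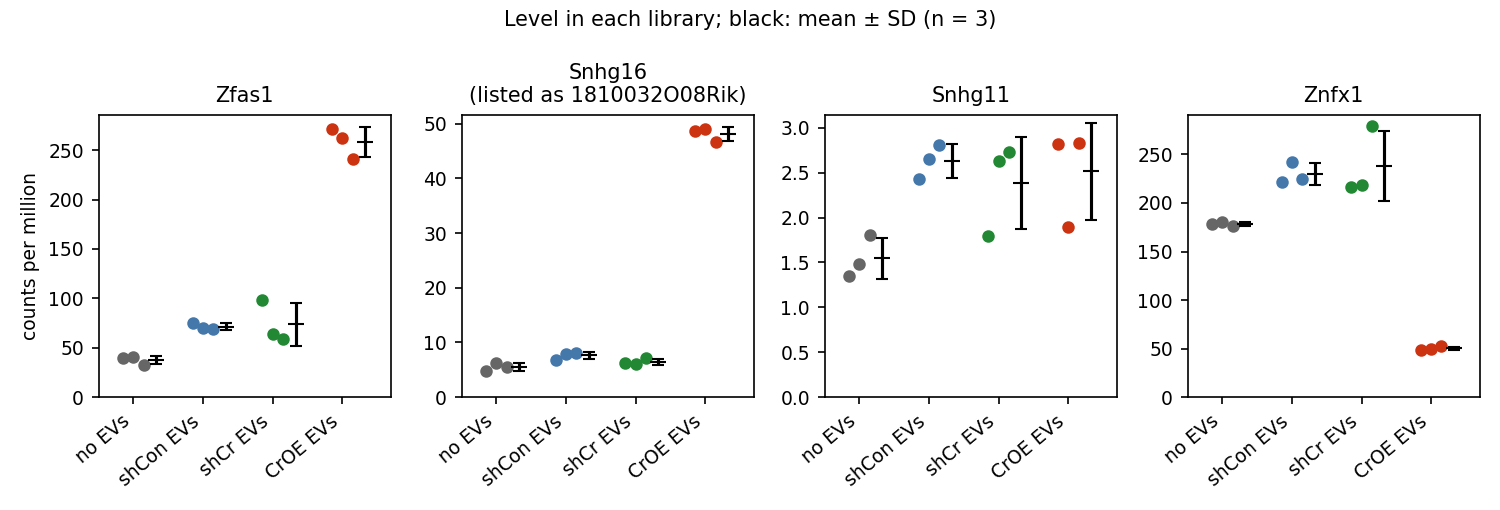
CPM (linear axis from 0) of Zfas1, Snhg16, Snhg11 and Znfx1 in the 12 libraries, points being single libraries and black marks the mean ± SD of 3. Zfas1 and Snhg16 were highest in the 3 CrOE libraries, Snhg11 was spread over 1.35 to 2.84 CPM, and Znfx1 was lowest in the CrOE libraries.

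Snhg16, host of the Snord1 snoRNAs, held 4.83, 6.21 and 5.44 CPM in untreated cells (5.50 ± 0.691, SD, n = 3). It held 6.87, 7.90 and 8.14 CPM after shCon EVs (7.64 ± 0.676), 6.20, 6.09 and 7.10 CPM after shCr EVs (6.46 ± 0.556) and 48.7, 49.1 and 46.8 CPM after CrOE EVs (48.2 ± 1.24). The CrOE libraries stood well apart from the other 9, which lay between 4.83 and 8.14 CPM. Snhg16 was 8.76-fold higher after CrOE EVs than in untreated cells (95% interval 7.48 to 10.3; log2 3.13, edgeR adjusted p = 1.32e-11). It rose less after shCon EVs (log2 0.48, edgeR adjusted p = 0.00323), and after shCr EVs its log2 fold change of 0.24 did not pass the test (edgeR adjusted p = 0.0951). That last value passed when the second untreated library was left out (log2 0.33, adjusted p = 0.0304). Against shCon and shCr EVs, CrOE EVs gave log2 fold changes of 2.66 and 2.89, both called. The shCr and shCon groups did not differ by the test (log2 -0.24, edgeR adjusted p = 0.186). Of 14279 genes, 169 had a larger log2 fold change than Snhg16 after CrOE EVs, against 213 for Zfas1.

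Snhg11, a host known mainly from neurons, was near the low end of what was tested, with 37 to 103 counts in a library. It held 1.35, 1.49 and 1.80 CPM in untreated cells, 2.43, 2.66 and 2.81 after shCon EVs, 1.80, 2.63 and 2.73 after shCr EVs and 2.82, 1.89 and 2.84 after CrOE EVs. The untreated and shCr groups overlapped narrowly, and the 3 EV groups overlapped one another. Its log2 fold changes against untreated cells were 0.76, 0.63 and 0.70 (edgeR adjusted p = 0.0128, 0.0332 and 0.00911). The shCon call was lost without the first untreated library (adjusted p = 0.0569). The shCr call was lost without Untreated replicate 1 or 2 or shCr replicate 2 or 3, and in a model of the 2 groups alone, with adjusted p of 0.0744 to 0.122. No pair of EV groups differed in Snhg11 (edgeR adjusted p = 0.752 to 0.776), with a fold of CrOE over shCon between 0.697 and 1.31. Of 12 further hosts listed, Snhg16 and Snhg11 were the 2 tested.

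Set side by side, the 3 measured hosts had log2 fold changes of 1.86 ± 0.16 (Zfas1), 2.66 ± 0.095 (Snhg16) and -0.066 ± 0.20 (Snhg11; all SE) for CrOE against shCon EVs. Whether the genes differ from one another in that step was not tested.

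**Figure D3:**
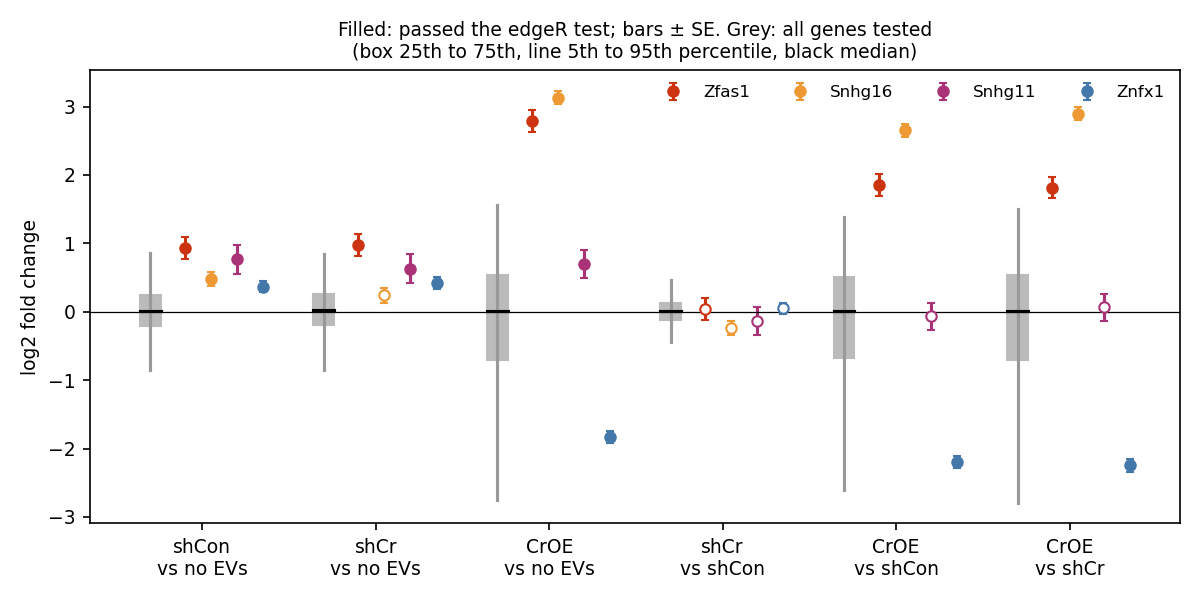
Log2 fold change (± SE) of Zfas1, Snhg16, Snhg11 and Znfx1 in the 6 pairs of groups, filled where the edgeR call was made, beside the percentiles of all 14279 genes in grey. Zfas1 lay above the 95th percentile of all genes in 5 comparisons, and in the pair of shCr and shCon EVs none of the 4 genes was called.

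Znfx1 starts 81 bases inside Zfas1 on the opposite strand, and 82 of the 738 bases of the 5-exon transcript (11.1%) overlap its exons. The library kit keeps strand, but whether the counting used it is not given in the sources used here, so reads from that stretch may have been assigned to either gene. Znfx1 held 178, 180.2 and 176 CPM in untreated cells (178 ± 1.97, SD, n = 3), 222, 242 and 225 CPM after shCon EVs, 216, 219 and 279 CPM after shCr EVs and 48.6, 49.6 and 52.3 CPM after CrOE EVs (50.1 ± 1.91). Znfx1 was a little higher after EVs from shCon and shCr cells (log2 0.37 and 0.42, edgeR adjusted p = 0.00431 and 0.00171), with no overlap with untreated cells. After CrOE EVs it fell by 1.83 on the log2 scale (edgeR adjusted p = 7.43e-10), while Zfas1 rose by 2.79. It was also lower after CrOE than after shCon EVs (log2 -2.20, where 36.1% of genes were called lower). The 2 genes thus moved the same way in 2 comparisons with untreated cells and opposite ways after CrOE EVs. Over the 12 libraries, which share scaling and groups, their log2 CPM had a Pearson r of -0.84, given as a description.

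Several host genes share a start region with a protein-coding gene. Of 8 listed neighbours of the hosts 7 were tested, and the annotated starts of 3 of these lie far from that of their host, at 212074 bases (Epb41l4a), 61491 bases (Prss12) and 20915 bases (Trnau1ap). Slc3a2, an amino acid transporter subunit whose start lies 106 bases from that of Snhg1 on the other strand, held 156 to 190.1 CPM in untreated cells and 2450 to 2693 CPM after CrOE EVs. Slc3a2 had log2 fold changes of 0.90 (shCon), 0.83 (shCr) and 3.93 (CrOE) against untreated cells, all called. Rcc1, a chromatin-bound exchange factor for the GTPase Ran, starts 81 bases from Snhg3 and lies on the same strand in the annotation. It was lower after shCon and shCr EVs (log2 -0.23 and -0.50, edgeR adjusted p = 0.0309 and 0.000228) and higher after CrOE EVs (1.27, adjusted p = 4.37e-09). The shCon call of Rcc1 was lost in 4 of the 12 fits that left out a library, with adjusted p of up to 0.129. Epb41l4a, a cytoskeletal FERM-domain gene, was called higher in 1 of the 3 comparisons with untreated cells, that of CrOE EVs (log2 0.55), and Prss12 was called there at a level of 0.374 CPM or less on average (log2 2.06, edgeR adjusted p = 0.0203), a call lost without Untreated replicate 1 or 3 or CrOE replicate 3 (adjusted p of 0.0648 to 0.0786). Zbtb37, whose start lies 427 bases from that of Gas5, had a log2 fold change of 0.20 after CrOE EVs (edgeR adjusted p = 0.385), and Trnau1ap had one of 0.015 (adjusted p = 0.869). These values are of the neighbours and give no level of the hosts. Rcc1 itself has 2 snoRNA genes inside in the annotation, and whether its counts include reads of Snhg3 was not tested.

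Listed genes that host snoRNAs in introns but encode proteins had smaller log2 fold changes than Zfas1 after CrOE EVs. Of these 30 protein-coding hosts, 29 were higher, 1 was lower and the median log2 fold change was 0.50, against 36.7% of all genes called higher and a median of 0.0078. The largest rise among them was that of Taf1d, a subunit of a polymerase I initiation factor (log2 1.82), and the 1 fall was that of Hspa8, a heat-shock cognate chaperone (-0.28). By DESeq2 or with RLE scaling 27 of the 30 were called higher after CrOE EVs, and with upper-quartile scaling 26. After shCon EVs 4 of the 30 were higher and 5 lower (median 0.022), Taf1d having the largest rise (0.54) and Dkc1, a pseudouridine synthase, the largest fall (-0.36). After shCr EVs 5 were higher and 5 lower (median 0.078). Both pairs of counts are near or below the shares of all genes, 18.0% higher and 20.2% lower after shCon EVs and 18.4% and 18.8% after shCr EVs. Among all genes typed as protein-coding with an annotated snoRNA inside, Snhg11 left out, 218 of 245 were tested, and after CrOE EVs 124 were higher and 44 lower (median 0.36). The 1 gene among them that rose more than Zfas1 was Ero1lb, an endoplasmic reticulum oxidase, singled out after its value was seen (log2 4.06).

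Cytosolic ribosomal protein genes, the best known TOP mRNAs, were close to flat after shCon EVs. There 1 of 76, Rpl12, was higher (log2 0.41) and 0 were lower by edgeR or DESeq2, with 1 lower at an unadjusted p under 0.05 (median -0.016), where 18.0% of all genes were called higher and 20.2% lower. After shCr EVs 6 were higher by edgeR, 8 by DESeq2, 4 with RLE scaling and 13 at an unadjusted p under 0.05, and 0 were lower by any of these (median 0.12), against 18.4% and 18.8% of all genes. After CrOE EVs 58 were higher and 4, Rpl37a, Rpl21, Rpl11 and Rps28, were lower (median 0.41, range -0.93 to 2.70), against 36.7% and 37.0% of all genes. The split by an annotated snoRNA inside gave similar medians, 0.40 for the 29 with one and 0.42 for the 47 without. Of the 76, 56 were higher and 4 lower after CrOE EVs by DESeq2 or with RLE scaling, and 55 and 5 with upper-quartile scaling. Zfas1 exceeded every gene of the 76 in all 3 comparisons with untreated cells.

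Factors of NMD, which removes many noncoding hosts, were mostly not called after shCon and shCr EVs. Of all genes 18.0% were called higher and 20.2% lower after shCon EVs, 18.4% and 18.8% after shCr EVs and 36.7% and 37.0% after CrOE EVs, and the counts of the next 3 lists stand beside those shares. Of 11 described, 1, Nbas, was higher after shCon EVs (log2 0.29, edgeR adjusted p = 0.00853), and after shCr EVs 0 were called by edgeR, by DESeq2 or at an unadjusted p under 0.05, at values of -0.096 to 0.13. After CrOE EVs 8 were higher and 1 lower (median 0.32), with Nbas, an NMD and vesicle transport factor, highest (1.61) and Dhx34, an NMD helicase, lowest (-0.51, edgeR adjusted p = 0.0108). The call of Dhx34 was lost without the second untreated library (adjusted p = 0.0514). The exon junction complex sits on spliced RNAs and takes part in NMD. Of its 6 listed genes, 3, Eif4a3, Rbm8a and Rnps1, were lower after both shCon and shCr EVs. Eif4a3 had the largest fall after shCon EVs (-0.47). With upper-quartile scaling 2 of the 6 were lower in each of those comparisons. After CrOE EVs 5 of the 6 were higher, Rnps1 most (0.86). Upper-quartile scaling left 3 of these 6 and 6 of the NMD factors called higher after CrOE EVs. Of 18 genes of translation termination and RNA decay, 1 was higher and 6 lower after shCon EVs, Dcp1b, a decapping cofactor, at 0.66 and Exosc8, an exosome subunit, at -0.69. After CrOE EVs 13 were higher and 1 lower, Dis3, an exosome nuclease, at 1.33 and Exosc10 at -0.39. These are levels of mRNA, and decay was not measured.

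Genes of the snoRNP, the proteins that bind snoRNAs and assemble them, were mostly lower or not called after shCon EVs and mostly higher after CrOE EVs. After shCon EVs 1 of 17 was higher, Naf1 (log2 0.48), and 9 were lower (median -0.20), Znhit3 having the largest fall (-0.50), against 20.2% of all genes called lower. After shCr EVs 1 was higher and 8 lower (median -0.18), against 18.8%. After CrOE EVs 14 were higher and 0 lower by edgeR, DESeq2 or an unadjusted p under 0.05 (median 0.91), Nop56, a core box C/D protein, having the largest rise (1.76). Zfas1 was higher after shCon EVs, where 9 of these genes were lower, and also after CrOE EVs, where 14 of them were higher.

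The lists on translation control held both higher and lower genes after shCon EVs, where 18.0% of all genes were called higher and 20.2% lower. Of 7 genes of translation elongation, 2 were higher and 3 lower after shCon EVs, Eef2k, the kinase of elongation factor 2, at 0.52 and Eif5a at -0.47. After CrOE EVs, where 36.7% of all genes were called higher and 37.0% lower, all 7 were higher, with values of 0.40 to 0.57 and Eef1b2 highest. Of 14 genes of mTORC1 signalling and TOP mRNA control, 3 (Eif4ebp1, Sesn2 and Tsc1) were higher and 1 (Ddit4) lower after shCon EVs, Eif4ebp1, a translation repressor, at 0.74 and Ddit4 at -0.18. The call of Ddit4 was lost in 8 of the 12 fits without a library (adjusted p of up to 0.175) and with upper-quartile scaling (adjusted p = 0.0511). After CrOE EVs 6 were higher and 2 lower, Eif4ebp1 at 1.64 and Rps6kb2, a ribosomal protein S6 kinase, at -0.71, and the share of the list called higher is near that of all genes in both comparisons. Of 7 genes around phosphorylation of the initiation factor eIF2alpha, 1 was higher and 2 lower after shCon EVs. The higher was Ppp1r15a, a phosphatase subunit that reverses this mark (0.67), and Eif2s1, which encodes eIF2alpha itself, had the larger fall (-0.34), a call lost in 7 of the fits without a library (adjusted p of up to 0.109). After CrOE EVs 3 of the 7 were higher and 2 lower (median 0.088), beside 36.7% and 37.0% of all genes. Ppp1r15a rose there by 4.08 on the log2 scale and Eif2ak2, a kinase sensing double-stranded RNA, fell by 1.72.

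The list of ATF4 response mRNAs, which are known to rise when eIF2alpha is phosphorylated, had the largest median. After shCon EVs 14 of 16 were higher and 1, Ddit4, lower (median 0.86), Trib3 having the largest rise (1.87), against 18.0% of all genes called higher. After shCr EVs 14 were higher and 1 lower (median 0.75), against 18.4% higher. After CrOE EVs 15 were higher and 0 lower by edgeR, DESeq2 or an unadjusted p under 0.05 (median 2.40), against 36.7% of all genes higher, Ppp1r15a having the largest rise. Zfas1 lay within the spread of this list: 7, 6 and 7 of its 16 genes had a larger log2 fold change than Zfas1 after shCon, shCr and CrOE EVs. Some genes stand in more than 1 list, among them Ppp1r15a, Nop56 and Slc3a2, and the lists were written with earlier results of these data known.

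**Figure D4:**
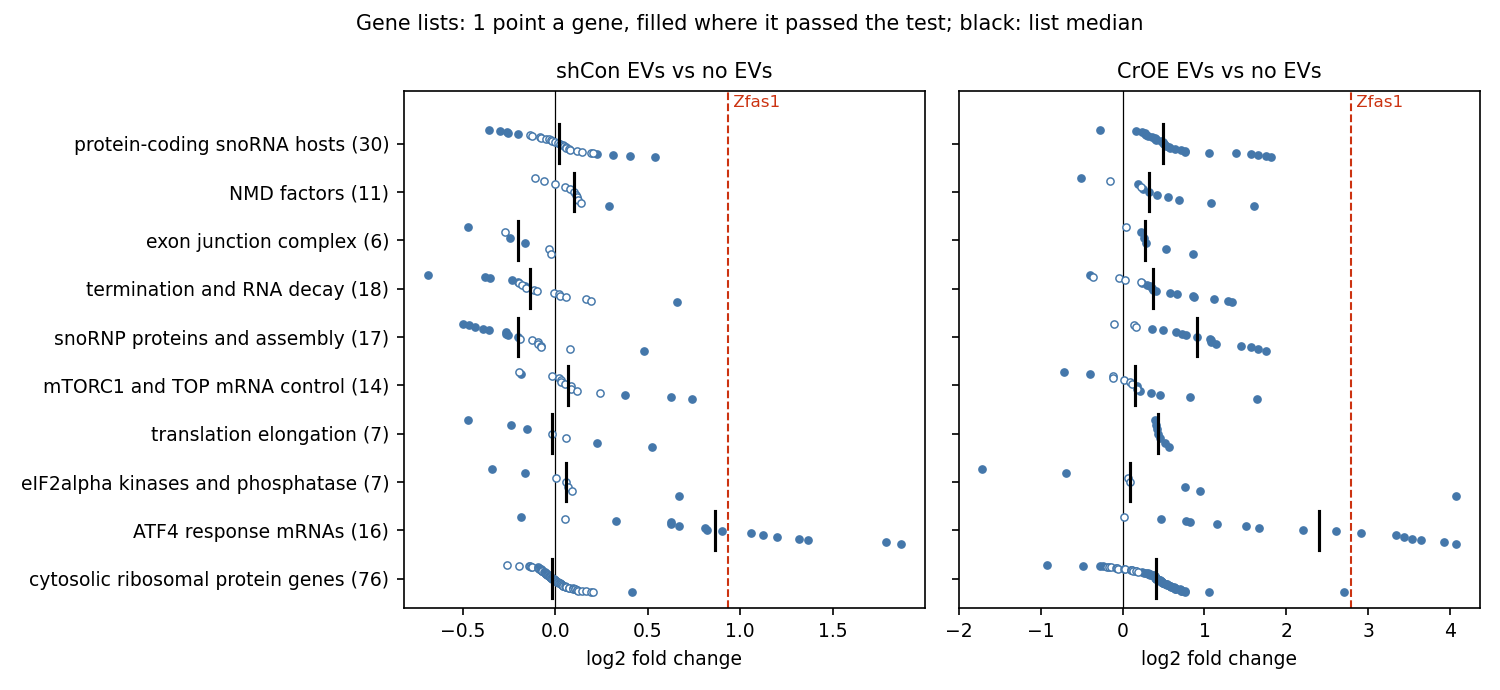
Log2 fold change of each gene of 10 lists after shCon EVs (left) and CrOE EVs (right) against untreated cells, filled where the edgeR call was made, with black bars at list medians, numbers of genes in brackets and a dashed line at Zfas1 (0.93 and 2.79). Zfas1 lay to the right of all genes of the lists except some of the ATF4 response list and, after CrOE EVs, Ppp1r15a, which is also in the eIF2alpha list.

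Genes whose log2 CPM followed Zfas1 most closely over the 12 libraries were taken from the 9766 genes whose average was 3 or more on the log2 CPM scale. Libraries share groups, so these correlations mainly follow the group levels and are given without a test. The 10 genes were Esd (Pearson r 0.996), Mospd1 (0.994), Ifrd1 (0.993), Mtm1 (0.993), Hax1 (0.991), Timm10, Cln8, Eif1, Zfp397 and Ube2f (each 0.990). All 10 were called higher in each of the 3 EV groups against untreated cells, with log2 fold changes after CrOE EVs of 0.75 (Ube2f) to 2.19 (Mtm1), below that of Zfas1. The shCon call of Timm10 was lost without Untreated replicate 3 or shCon replicate 2 or 3 (adjusted p of 0.0527 to 0.0921). The first shCr library was the highest of its group for all 10 genes, as it was for Zfas1. Esd, for example, stood there at 258 CPM against 189 and 190.5, and Ifrd1 at 82.0 CPM against 66.9 and 70.2. The correlations thus also take in the level of that library. Snhg16 ranked 551st in likeness to Zfas1 (r = 0.938), and Slc3a2 118th (r = 0.971).

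**Figure D5:**
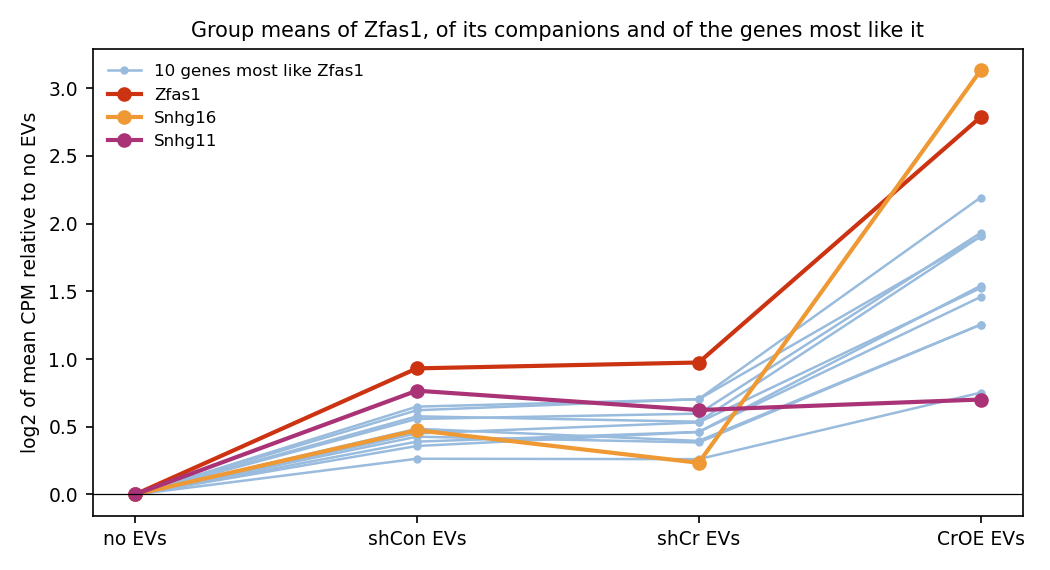
Log2 of the mean CPM of each group relative to untreated cells, for Zfas1, Snhg16, Snhg11 and, in light blue, the 10 genes most like Zfas1. Zfas1 rose by 0.93 and 0.97 after shCon and shCr EVs and by 2.79 after CrOE EVs, above each of the 10 genes in every EV group, and Snhg11 stayed at about the same height in the 3 EV groups.

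The precision of these levels has 2 limits. The Zfas1 values were not whole numbers (tolerance 0.01) in 11 of 12 libraries. Over all its transcripts, 17.2% of the 3006 stretches of 31 bases in Zfas1 also occur in other annotated genes, 558 in number, so its reads could be split. In the 5-exon transcript alone it is 22.5% of 708 stretches, shared with 1 gene, Gm27494, a short RNA annotated inside the first Zfas1 exon. Over all transcripts, 5.01% of such stretches of Snhg16 are shared with 5 other genes, and 6.43% of those of Snhg11 with 2021.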

How the data were processed

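Bulk RNA sequencing of 12 libraries was used. Per the labels' protocols, RNA was poly(A)-selected and libraries were directional. The deposited values, in 1 table with gene symbols as rows, are estimated counts without scaling, and 39.8% of them were not whole. The submitters' processing notes name featureCounts and the build mm39; their role, the annotation and the use of strand are not given in the sources used here.

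Estimated counts were rounded, as the design provided, filtered with filterByExpr (14279 genes kept) and scaled by TMM. edgeR 4.0.16 (R 4.3.3) tested all 12 libraries with 1 mean per group by its quasi-likelihood F-test (8 residual degrees of freedom), with Benjamini-Hochberg adjustment over all genes and calls at an adjusted p under 0.05. Standard errors came from the F statistic. Levels are TMM-scaled CPM, and log2 CPM used a prior count of 2. The biological coefficient of variation was 8.90%. The test was also run on simulated counts in which all genes had the same spread. Real genes differ in spread, so that run does not measure how the test does on these data. Depth was 25960054 to 37774020 counts a library. Alternatives were RLE and upper-quartile scaling, DESeq2 1.42.0, other count filters, the replicate number as a block, 2-group models, a fold of at least 1.5 and leaving out each library.

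Members and lists were chosen with earlier results of these data known. Named were members, other hosts and neighbours, the called genes with the largest rise and fall in each list after shCon and CrOE EVs, and the 10 genes most correlated with Zfas1; names that only identify the genes of a small count were given after their values were seen. One gene of the NMD list is not reported here and was left out of its counts and median. snoRNAs and transcript starts came from GENCODE M21 (GRCm38) and promoters from RefSeq (GRCm38.p6).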

Additional observations from a re-analysis of the deposited data

How the results depend on the processing

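Under 20 alternatives per comparison, Zfas1 kept its direction and its side of the threshold in the 5 comparisons in which it was called. Against untreated cells its log2 fold change lay between 0.83 and 0.99 for shCon EVs, between 0.71 and 1.11 for shCr EVs and between 2.69 and 2.84 for CrOE EVs. It lay between 1.80 and 1.91 for CrOE against shCon EVs and between 1.67 and 2.08 for CrOE against shCr EVs. Between shCr and shCon EVs it had no call, and its sign turned without shCr replicate 1 (-0.23; range when libraries were left out -0.23 to 0.18). Other uncalled values also turned sign when 1 library was left out. For Snhg11 they ranged from -0.25 to 0.021 (shCr against shCon), -0.16 to 0.11 (CrOE against shCon) and -0.092 to 0.24 (CrOE against shCr). For Znfx1 they ranged from -0.080 to 0.11 (shCr against shCon). For Zbtb37 they ranged from -0.27 to 0.079 after shCon and -0.0032 to 0.36 after CrOE EVs. For Trnau1ap after CrOE EVs they ranged from -0.057 to 0.11, and it was -0.032 with upper-quartile scaling and -0.019 with at least 10 counts in every library. The cause was not tested.

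A fold of at least 1.5 left 1930, 1896 and 6844 genes called after shCon, shCr and CrOE EVs, 344 for shCr against shCon, 6544 for CrOE against shCon and 6883 for CrOE against shCr, from 5447, 5320, 10524, 1247, 10373 and 10552; the rule itself removes small changes. The shCr and shCon groups gave 641 genes in a model of those 2 groups, and 632 to 1396 when libraries were left out (688, 632 and 666 without shCon replicate 1, 2 or 3). The longest pyrimidine run at the RefSeq start of Zfas1 was 4 bases within 10 and within 20 bases. Deviations of same-numbered libraries had correlations of -0.204 to 0.315, of which 5 of 18 were over 0.1. Whether the replicate numbers pair the libraries cannot be told from these values. With the number as a replicate block, 5691, 5529 and 10657 genes were called against untreated cells. The Zfas1 log2 fold changes were then 0.94, 0.95 and 2.79, each with an SE of 0.12 against 0.16 without the block. Of the list medians against untreated cells, under RLE or upper-quartile scaling or DESeq2, 1 changed sign, that of the 218 protein-coding genes with a snoRNA inside after shCon EVs, which was near 0 throughout (-0.0077 as reported).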
